A study of Homo sapiens with 12 samples.

Results

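Expression in HCT116 cells given siRNAs to every NFYA transcript (siTotal) was compared with that in cells given siRNAs to the long NFYA transcript only (siLong). The comparison holds 8 of the 12 libraries of the series, chosen by their titles: siTotal1, siTotal2, siLong1 and siLong2, each with libraries 1 and 2. HCT116 is an established human cell line with epithelial features, derived from a carcinoma of the colon. Cells were seeded at 25000 per well, transfected with 62.5 nM siRNA by lipofection and collected 72 h later. Each number names a different siRNA sequence, and the libraries of a group are biological duplicates per the design text. Both arms therefore carried an siRNA to NFYA, and the siTotal siRNAs were designed to reach the long transcript as well. The long form is defined in the labels by the longest 3′ untranslated region that RefSeq lists for NFYA. The other 4 libraries, mock (transfection with no siRNA) and siControl (a non-targeting siRNA, 62.5 nM), are given as reference levels and add to the estimate of the spread. The libraries were stranded and made from polyadenylated RNA.

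NFYA is the subunit of the trimeric transcription factor NF-Y that reads the DNA sequence, and NFYB and NFYC are its histone-fold partners. NF-Y binds the CCAAT box, a short promoter element set a little upstream of the start of transcription in many genes of cell division, lipid synthesis and protein folding. The design sets siRNAs to all NFYA transcripts beside siRNAs to the long one.

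The siRNA sequences are shown because each arm rests on 2 of them, and a change that follows 1 sequence is not shared by the arm. Sense strands are written 5′ to 3′, and capitals mark bases 12 to 18, which pair with bases 2 to 8 of the guide strand (its seed). The labels give 2 sequences per target without numbering them, so they are called first and second here.
siTotal, first sequence: acuagaggcagAAGGGAAa
siTotal, second sequence: uggugaaggugGACGAUUu
siLong, first sequence: agugaucauugUAGGGUAa
siLong, second sequence: ggucauuccuuUAGCAUCa
Each siTotal sequence matched 2 transcripts of NFYA in GENCODE 29, inside the coding sequence, and no other gene. The siLong sequences matched 0 transcripts of that annotation, so their sites are not placed here. The 4 seeds differ from each other.

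Gene counts summed to 35604197 to 38246541 reads in the 8 libraries and to at most 49746637 in the series, and of 63677 listed genes 17730 passed the filter on low counts. Mitochondrial transcripts took 3.93% to 5.75% of reads in siTotal, 5.45% to 6.60% in siLong and 3.83% to 4.98% in mock and siControl. Epithelial markers EPCAM, KRT8, KRT18, KRT19, CDH1, CDX2 and ELF3 were present in all 12 libraries, and VIL1 (1 to 6 reads) and CDX1 (0 or 1 read) were near 0. Of the fibroblast markers, COL1A1 had 966 to 1864 reads in every library. DCN, COL1A2 and COL3A1 were at 0 reads in some libraries and reached 106, 158 and 97 in others. They were highest in 1 mock library, siTotal2 and 1 library labelled siLong2, and did not separate the arms. PECAM1, an endothelial marker, had 0 reads, and PTPRC, the leukocyte marker, at most 1. In bulk RNA fewer cells of a type and less RNA per cell cannot be told apart.

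NFYA (ENSG00000001167, chromosome 6, 41072945 to 41099976 on GRCh38, plus strand), the targeted gene, stood at 47.9 and 46.8 CPM in siTotal1, 46 and 46.1 in siTotal2, 47.6 and 46.5 in siLong1 and 69.7 and 70.2 in the libraries labelled siLong2. Mock held 55.2 and 59.1 CPM and siControl 57.4 and 57.5. CPM is the read count scaled for library size, so that libraries can be compared. The libraries labelled siLong2 were the only ones above both controls, against what their label names, and siLong1 lay among the siTotal libraries. Counts per gene cannot tell the long NFYA transcript from shorter ones. On the mean of each arm NFYA was lower in siTotal (log2 difference -0.30, SE 0.04, adjusted p = 5.5e-09). Without the libraries labelled siLong2 the difference was -0.01 (adjusted p = 0.84). Genes are therefore also counted by siRNA pair, and the main lists without those libraries. Single genes given by 1 difference, and the promoter and seed-word medians, are on the arm means of all 8 libraries.

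The partner subunits separated the arms. NFYC (ENSG00000066136, chromosome 1, 40691648 to 40771603) stood at 101 and 95.9 CPM in siTotal1, 86.1 and 83.3 in siTotal2, 60.8 and 61.2 in siLong1 and 54.7 and 59.9 in the libraries labelled siLong2. All 4 siTotal libraries were above all 4 siLong libraries (log2 difference 0.63, SE 0.03, adjusted p = 1.2e-17), and the 4 control libraries (55 to 58.9 CPM) lay among the siLong values. NFYB (ENSG00000120837, chromosome 12, 104117077 to 104138289) stood at 59.3 and 57.5 CPM in siTotal1, 52.6 and 52.8 in siTotal2, 36 and 32.5 in siLong1 and 24.1 and 22.4 in the libraries labelled siLong2. It too was higher in every siTotal library (log2 difference 0.97, SE 0.04, adjusted p = 1.2e-20), with the controls at 31.5 to 33.8 CPM. Against siLong1 alone the differences were 0.77 and 0.62 for NFYB and 0.69 and 0.47 for NFYC, so neither rested on the libraries labelled siLong2. NFYB was lower in the libraries labelled siLong2 than in siLong1 by 0.56 (adjusted p = 1.3e-09), the group in which NFYA was highest.

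The arms differed at many genes by small amounts, and most of those genes did not differ alike for every siRNA. On the mean of each arm 9472 of 17730 genes (53.4%) passed edgeR's quasi-likelihood test at an adjusted p under 0.05 (Benjamini-Hochberg), 4984 higher in siTotal (28.1%) and 4488 lower (25.3%). Only 654 (3.69%) passed and differed by at least 2-fold. The 2 siRNAs of an arm also differed from each other: siTotal1 against siTotal2 gave 7775 calls (43.9%) and siLong1 against siLong2 gave 9521 (53.7%). Over the 12352 genes with a mean log2 CPM of at least 1, the root mean square log2 difference was 0.33 between the arm means, 0.40 to 0.46 between the 4 siTotal-siLong pairs, 0.36 between the siTotal siRNAs, 0.45 between the siLong siRNAs, and 0.12 to 0.16 between the libraries of a group. The p-values measure the spread between the libraries of a group and not that between siRNA sequences.

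Genes were therefore also counted by pairs. A gene was taken as differing alike when siTotal1 against siLong1, siTotal1 against siLong2, siTotal2 against siLong1 and siTotal2 against siLong2 were each called in the same direction. This held for 2118 genes (11.9%), 1203 higher in siTotal (6.79%) and 915 lower (5.16%). Taken singly, the pairs gave calls at 52.6%, 50.6%, 53.5% and 49.2% of genes, in the order above. Both siTotal group means lay on 1 side of both siLong means in 6644 genes (37.5%). For 2 siRNAs against 2 with interchangeable means, that order would arise in a share of 0.33, close to the share seen. Calls in all 4 pairs and lack of overlap build on the same order. The 8 libraries did not overlap in 3710 genes (20.9%), 2011 higher (11.3%) and 1699 lower (9.58%). The nearest group means were at least 2-fold apart in 67 of the genes that differed alike (0.378%), 23 higher (0.13%) and 44 lower (0.248%). In 4064 genes (22.9%) the mean was called although the 4 pairs did not all have 1 sign, and in 3941 (22.2%) 1 pair was called up and another down. The genes that differed alike were mostly protein coding (94.8% of the higher and 92.7% of the lower, against 74.8% of all tested). Their median levels were also above that of all tested genes, at 5.21 and 5.37 against 3.82 on the log2 CPM scale. Their median difference was 0.49 (higher) and 0.44 (lower) in size on the log2 scale.

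**Figure D1:**
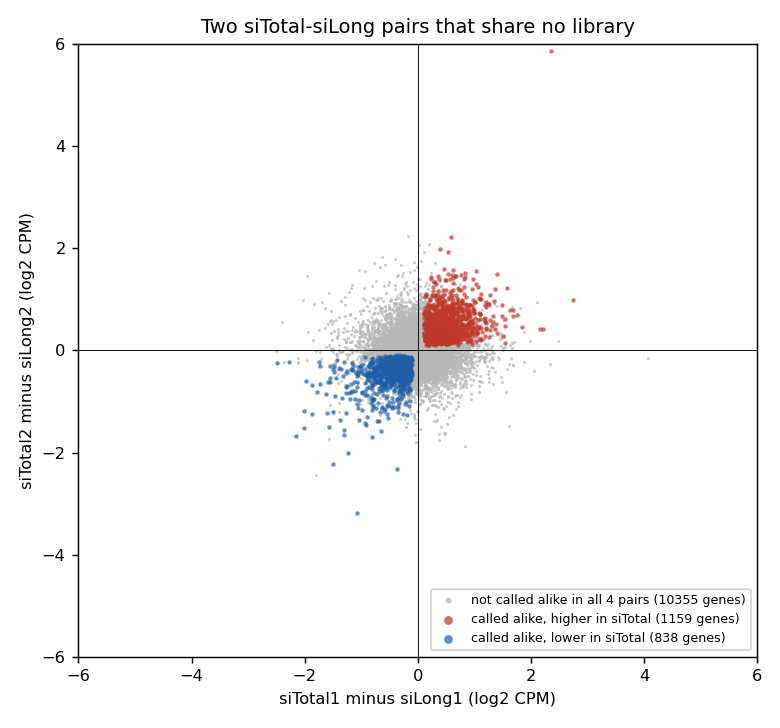
Each point is 1 of 12352 genes with a mean log2 CPM of at least 1. The x axis is siTotal1 minus siLong1 and the y axis siTotal2 minus siLong2, both in log2 CPM, and the pairs share no library. Red and blue points are genes called in 1 direction in all 4 pairs (1159 and 838 of those plotted). Grey points fill all 4 quadrants.

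Differences of 2 pairs that share no library were weakly related across these 12352 genes. Pearson's r was 0.175 (Spearman's rho 0.16) between siTotal1 minus siLong1 and siTotal2 minus siLong2, and 0.0611 (rho 0.093) between siTotal1 minus siLong2 and siTotal2 minus siLong1. These are descriptions across genes, which are not independent replicates. With the libraries of a group summed and each siRNA as 1 replicate, edgeR called 0 genes (smallest adjusted p = 0.61), with 1346 of 18608 at an unadjusted p under 0.05. DESeq2 called 77 in the same layout, 33 higher and 44 lower. Of those 77, 76 were among the genes called alike in all 4 pairs. An exact two-sided permutation test of 2 siRNAs against 2 cannot go below p = 0.33.

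Among genes called alike with a mean log2 CPM of at least 1, the widest gap of those higher in siTotal was that of DHRS2, a short-chain dehydrogenase (ENSG00000100867, chromosome 14, 23630115 to 23645639). The gap is the log2 distance between the nearest siTotal and siLong group means. DHRS2 stood at 34.1 and 35.4 CPM in siTotal1, 184 and 174 in siTotal2, 6.61 and 6.86 in siLong1 and 3.01 and 3.06 in the libraries labelled siLong2, with the controls at 14.1 to 19.8 CPM. Every siTotal library was above, and every siLong library below, every control library. The arms differed by 4.12 on the log2 scale (SE 0.05, adjusted p = 5.6e-37). Its siRNAs also differed within each arm, by -2.36 for siTotal1 minus siTotal2 and 1.15 for siLong1 minus siLong2, and the gap was 2.36.

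FADS2, the delta-6 desaturase of polyunsaturated fatty acid synthesis (ENSG00000134824, chromosome 11, 61792980 to 61867354), stood at 23.1 and 21.5 CPM in siTotal1, 31.1 and 31.3 in siTotal2, 8.41 and 8.5 in siLong1 and 10.7 and 11.3 in the libraries labelled siLong2. The controls (19.1 to 21.4 CPM) lay just under the siTotal libraries and well above siLong, and the arms did not overlap (log2 difference 1.45, SE 0.05, adjusted p = 1.4e-22). H1-10, a linker histone variant made outside S phase (ENSG00000184897, chromosome 3, 129314771 to 129316277), stood at 72.5 and 80.7 CPM in siTotal1, 84.2 and 75.8 in siTotal2, 38.6 and 36.8 in siLong1 and 25.8 and 29 in the libraries labelled siLong2. Its siTotal libraries lay within or near the control range (75.9 to 104 CPM) and its siLong libraries below it (log2 difference 1.28, SE 0.06, adjusted p = 1.7e-10). A pair of interferon-related genes followed the same order. IFI35 was at 8.63 to 9.94 CPM in siTotal and 3.82 to 4.57 in siLong (log2 difference 1.17, SE 0.08, adjusted p = 1.6e-14), and the interferon regulatory factor gene IRF7 at 7.05 to 9.27 and 3.44 to 4.25 (log2 difference 1.05, SE 0.09, adjusted p = 2.7e-12). In both, siLong lay under the controls (6.94 to 9.49 and 5.89 to 8.44 CPM).

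At that level, the other 7 of the 12 widest gaps were between 0.91 and 1.02. DENND6A, an exchange factor for a Rab GTPase, was at 34.8 to 38.6 CPM in siTotal and 15.4 to 19 in siLong (log2 difference 1.09), and its controls (30.8 to 36.7 CPM) overlapped the siTotal range or lay under it. CCDC167, FAM219A and C21orf58 differed by 1.18, 1.06 and 0.99. TMPO-AS1, transcribed antisense to TMPO, differed by 1.05, and here the controls (3.21 to 5.24 CPM) overlapped siLong (3.12 to 4.37) and lay under siTotal (6.97 to 9.02). Its reads may include those of TMPO, since the sources used here do not give how strand was treated in counting. CELSR1P1 (1.32) is a transcribed pseudogene, and its count is uncertain because its reads can also fit a similar gene. The 8 libraries of each of these 12 genes did not overlap between the arms, and the largest adjusted p on the mean was 1.8e-10 (TMPO-AS1). Both follow largely from picking genes by calls in all 4 pairs and the widest gap, and are no separate support.

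**Figure D2:**
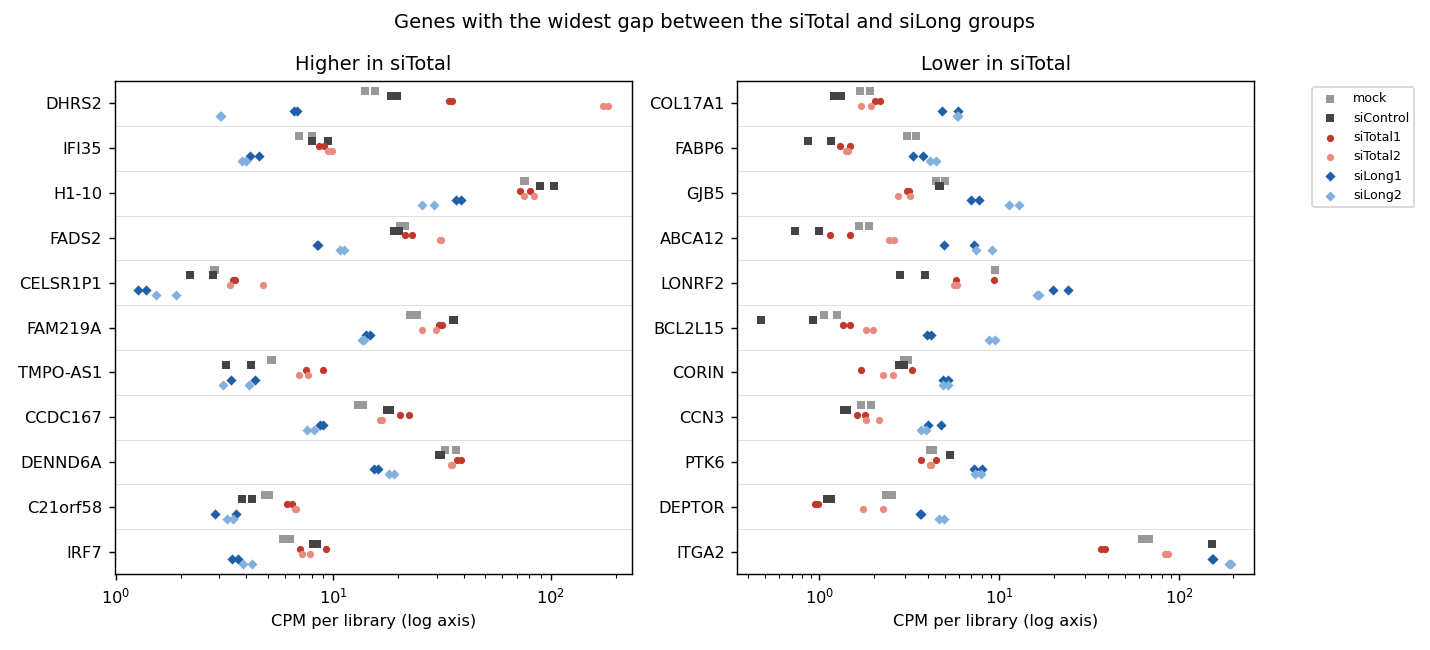
CPM of each library on a log axis for 11 of the 12 genes with the widest gap in each direction among genes called alike in 4 pairs with a mean log2 CPM of at least 1. Circles are siTotal, diamonds siLong and squares mock and siControl, 2 per group. In the left panel circles lie to the right of diamonds for all 11 genes, with DHRS2 reaching 184 CPM. In the right panel they lie to the left.

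Among genes lower in siTotal, again with a mean log2 CPM of at least 1, COL17A1, the transmembrane collagen of hemidesmosomes (ENSG00000065618, chromosome 10, 104031286 to 104085957), had the widest gap (1.31). It stood at 2.03 and 2.19 CPM in siTotal1, 1.94 and 1.71 in siTotal2, 4.77 and 5.88 in siLong1 and 5.82 and 5.89 in the libraries labelled siLong2, and both controls (1.21 to 1.90 CPM) lay with siTotal or under it (log2 difference -1.51, SE 0.11, adjusted p = 3.6e-14). ITGA2, the alpha-2 chain of a collagen-binding integrin (ENSG00000164171, chromosome 5, 52989326 to 53094779), stood at 36.9 and 38.9 CPM in siTotal1, 83.2 and 86.2 in siTotal2, 154 and 151 in siLong1 and 189.7 and 193 in the libraries labelled siLong2. The siControl libraries (151 and 152 CPM) lay with siLong and the mock libraries (61.8 and 67.9) among the siTotal groups (log2 difference -1.59, SE 0.03, adjusted p = 4.1e-30).

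GJB5, a connexin, stood at 3.05 and 3.14 CPM in siTotal1, 2.74 and 3.19 in siTotal2, 6.95 and 7.73 in siLong1 and 11.3 and 12.8 in the libraries labelled siLong2, with the controls (4.45 to 4.96 CPM) between the arms (log2 difference -1.63, SE 0.09, adjusted p = 9.1e-18). ABCA12, a lipid transporter best known in keratinocytes, was at 1.15 to 2.60 CPM in siTotal and 4.94 to 9.11 in siLong (log2 difference -1.96, SE 0.13, adjusted p = 2.1e-14). BCL2L15, of the BCL2 family, was at 1.34 to 1.99 and 3.95 to 9.41 CPM (log2 difference -1.89, SE 0.12, adjusted p = 6.8e-16). FABP6, the ileal bile acid-binding protein, was at 1.30 to 1.49 and 3.30 to 4.43 CPM (-1.46), and its mock libraries (3.07 and 3.44) were near siLong while siControl (1.16 and 0.862) was near siTotal. PTK6, an epithelial non-receptor tyrosine kinase, and CORIN, a membrane serine protease, differed by nearly the same amount in every pair. PTK6 was at 3.69 to 4.46 against 7.23 to 8.05 CPM, with all 4 pairs between -0.91 and -0.88. CORIN was at 1.69 to 3.25 against 4.87 to 5.18 CPM, with all 4 pairs between -1.06 and -1.02. LONRF2 (-1.53), the mTOR inhibitor gene DEPTOR (-1.58) and the matricellular gene CCN3 (-1.16) were also among the 12. Most of these genes were low, with every siTotal library under 5 CPM in 10 of the 12.

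Genes of cell division were higher in siTotal than in siLong. Of 40 mitosis genes, 40 were called higher on the mean and 31 were called higher in all 4 pairs, with 0 lower, and the list median was 0.47 on the log2 scale. Over all tested genes 28.1% were called higher on the mean and 6.79% in all 4 pairs, and the median was 0.01. The kinase gene CDK1, which drives entry into mitosis, stood at 194 and 179 CPM in siTotal1, 195 and 178 in siTotal2, 123 and 118 in siLong1 and 115 and 115 in the libraries labelled siLong2 (log2 difference 0.67, SE 0.03, adjusted p = 4.1e-19). Its siTotal libraries lay above the controls or at their level (171 to 182 CPM) and all 4 siLong libraries lay below.

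Other members held different steps of mitosis. CCNB2, a B-type cyclin and partner of CDK1, stood at 98.8 to 112 CPM in siTotal and 66.8 to 72.7 in siLong (0.59, SE 0.03). The spindle pole kinase AURKA was at 129 to 141 and 89.6 to 96.5 CPM (0.51, SE 0.03), and BIRC5, the survivin subunit of the chromosomal passenger complex, at 257 to 288 and 173 to 197 (0.56, SE 0.03). The arms did not overlap for any of these, which in this direction held for 11.3% of all tested genes. These members were picked by calls in all 4 pairs and by their gap, so the lack of overlap is no separate support. The 9 members not called in all 4 pairs were CCNF, BORA, ECT2, CDC25B, CDC20, PTTG1, CENPA, TTK and FOXM1, with differences of 0.11 (CCNF) to 0.57 (FOXM1, the forkhead factor of late cell cycle genes). Against mock and siControl, which both arms share, the mitosis median was -0.05 and 0.05 in siTotal and -0.51 and -0.41 in siLong. Without the libraries labelled siLong2, 36 members were called higher and 1 lower, and 31 were called higher in both remaining pairs, a looser rule than 4 pairs. Of all 17565 genes tested in that setting, 4946 were called higher and 4750 lower, and 3035 were higher and 2802 lower in both pairs. The same counts stand beside the other lists given without these libraries.

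DNA replication genes followed the same direction, with 37 of 40 called higher on the mean and 1 lower, 25 higher in all 4 pairs and a median of 0.39. Of all tested genes 28.1% were called higher and 25.3% lower on the mean, and 6.79% higher in all 4 pairs. PRIM1, the catalytic subunit of DNA primase, stood at 57.7 and 51.4 CPM in siTotal1, 60.4 and 60.2 in siTotal2, 27.5 and 28.7 in siLong1 and 34.2 and 30.9 in the libraries labelled siLong2 (log2 difference 0.92, SE 0.04, adjusted p = 9.5e-20). The controls (45.8 to 56.7 CPM) lay between the arms or with siTotal. CDC6, which loads the MCM helicase, was at 165 to 185 CPM in siTotal, 90.3 to 130.1 in siLong and 178 to 197 in the controls (0.71, SE 0.03). Parts of the active CMG helicase differed alike: CDC45 by 0.50, GINS2 by 0.53 and MCM7 by 0.43. MCM2 (0.18), MCM3 (0.15) and MCM5 (0.28) were called on the mean but not in all 4 pairs. PCNA, the sliding clamp, was the member called lower (-0.11), and CCNE1 (0.01) and RFC5 (0.05) did not pass. The median was -0.09 against mock and 0.10 against siControl in siTotal, and -0.49 and -0.35 in siLong. With the siLong2 libraries left out, 29 were called higher and 4 lower.

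DNA repair genes were called higher in siTotal in 23 of 28 members, lower in 0, and higher in all 4 pairs in 15, with a median of 0.35. The shares of all tested genes were 28.1%, 25.3% and 6.79%. BRCA1, of homologous recombination, stood at 77 and 73.7 CPM in siTotal1, 76.4 and 75.1 in siTotal2, 40.0 and 40.1 in siLong1 and 49.8 and 46.9 in the libraries labelled siLong2 (log2 difference 0.78, SE 0.03, adjusted p = 2.9e-20). The siTotal libraries were within the control range or within 1 CPM of it (74.7 to 77.9 CPM) and the siLong libraries far under it. BLM, the Bloom syndrome helicase, was at 56.5 to 59.5 and 34.4 to 36.4 CPM (0.74, SE 0.04), the BRCA1-associated helicase BRIP1 at 43.6 to 44.5 and 27.7 to 29.3 (0.63), and FANCB, of the Fanconi anemia core complex, at 8.92 to 10.5 and 5.59 to 6.32 (0.72). The kinase gene ATM (-0.13), PALB2 (-0.01), XRCC2 (0.02) and CHEK2 (0.09) were among those that did not pass. Leaving out siLong2, 23 were called higher and 3 lower.

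**Figure D3:**
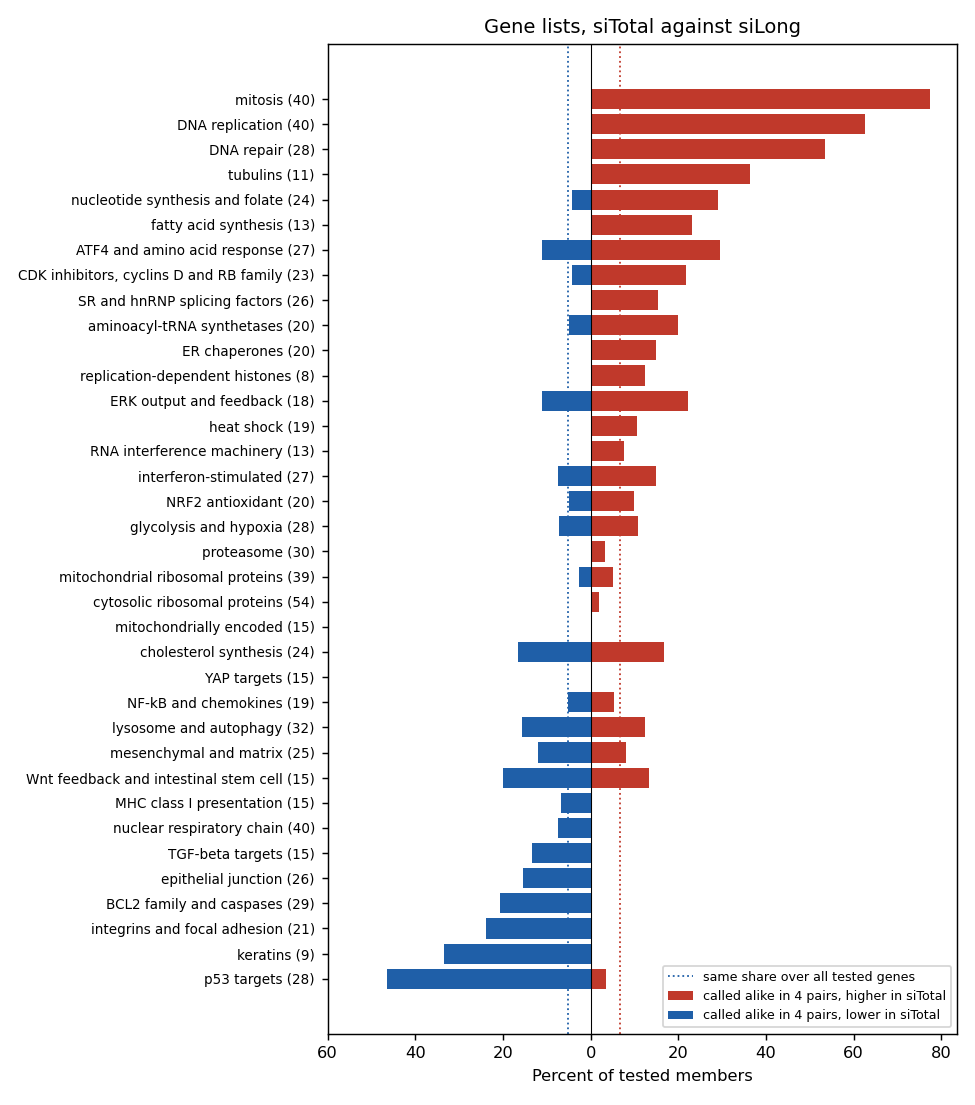
Bars give the percent of tested members of each gene list (number tested in brackets) called in 1 direction in all 4 siTotal-siLong pairs, to the right where higher in siTotal (red) and to the left where lower (blue). Dotted lines mark the same shares over all 17730 tested genes, 6.79% and 5.16%. The bars of mitosis, DNA replication and DNA repair run far past the right line, and that of p53 targets far past the left one.

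p53 targets were lower in siTotal. HCT116 keeps wild-type p53, which switches on genes of cell cycle arrest and apoptosis. Of 28 tested members 23 were called lower on the mean and 2 higher, and 13 were lower and 1 higher in all 4 pairs, with a median of -0.41. Over all tested genes 25.3% were called lower on the mean and 5.16% in all 4 pairs. BTG2, an antiproliferative gene, stood at 27 and 29.4 CPM in siTotal1, 51.1 and 53.1 in siTotal2, 77.3 and 82.7 in siLong1 and 118 and 124 in the libraries labelled siLong2 (log2 difference -1.36, SE 0.04, adjusted p = 7.5e-25). Its siTotal1 libraries lay under the controls (32.2 to 44.6 CPM), its siTotal2 libraries above them and its siLong libraries higher still. GADD45A, a stress gene of growth arrest, was at 28.6 to 35.5 CPM in siTotal and 53.3 to 64.2 in siLong (-0.87, SE 0.04), with the controls at 35.1 to 47.9. The stress cytokine gene GDF15 was at 98 to 122 and 155 to 267 CPM (-0.86, SE 0.07), and the CDK inhibitor gene CDKN1A differed by -0.92.

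The p53 list did not move as a whole. DDB2, of nucleotide excision repair, was higher in siTotal in all 4 pairs (0.50), CCNG1 was higher on the mean (0.21), and MDM2, which encodes the ubiquitin ligase of p53, was at -0.01 and did not pass. Both arms lay above the controls at the median, siTotal by 0.26 (mock) and 0.27 (siControl) and siLong by 0.67 and 0.64. The libraries labelled siLong2 were further from siTotal than siLong1: the median was -0.60 and -0.62 in the pairs with siLong2 and -0.17 and -0.24 in the pairs with siLong1. Without the libraries labelled siLong2, 16 members were called lower and 5 higher, and the median was -0.21.

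Genes of the BCL2 family and caspases were called lower in siTotal in 15 of 29 members and higher in 5, and in all 4 pairs 6 were lower and 0 higher (median -0.18). Of all tested genes 25.3% were lower and 28.1% higher on the mean, and 5.16% and 6.79% in all 4 pairs. Of the pro-apoptotic BH3-only members, BIK was at 10.5 to 13.3 CPM in siTotal and 22.4 to 25.2 in siLong (-1.03, SE 0.05), and BBC3 at 14.6 to 18.9 and 25.7 to 30.1 (-0.66, SE 0.06). BAX, which permeabilises the mitochondrial membrane, was at 64.4 to 75.4 and 86 to 97.6 CPM (-0.42). BBC3 and BAX are p53 targets as well. BMF, also BH3-only, went the other way (1.05), but not in all 4 pairs, and the anti-apoptotic BCL2L1 (0.00) and MCL1 (-0.05) did not pass. When siLong2 was left out, 12 were called lower and 9 higher, and the list median was -0.01.

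Among CDK inhibitors, D cyclins, E2F and RB family genes, 16 of 23 were called higher and 5 lower, and 5 and 1 in all 4 pairs (28.1%, 25.3%, 6.79% and 5.16% of all genes). The pocket proteins RBL1 and RBL2, which repress E2F targets, were at 38.9 to 39.9 and 38.7 to 40.7 CPM in siTotal and at 25.2 to 30.9 and 18.4 to 28.4 in siLong (0.51 and 0.77). E2F7, a repressor of the E2F family, was at 52.3 to 57 and 27.1 to 47.9 CPM (0.61), and MYBL2, a subunit partner of the complex that activates mitotic genes, differed by 0.68. RB1 itself (0.06) and the inhibitor gene CDKN1B (-0.01) did not pass.

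Tubulin genes split by isotype. TUBA4A (0.89), TUBG1 (0.55), TUBB4B (0.52) and TUBA1B (0.44) were higher in siTotal in all 4 pairs, 4 of 11 tested, with 0 lower (6.79% and 5.16% of all genes). TUBA4A was at 80.2 to 96.2 CPM in siTotal, 40.7 to 54.8 in siLong and 72.7 to 92.5 in the controls. TUBA1A (-0.51), TUBB3 (-0.39) and TUBB6 (-0.20) were lower on the mean but not in all 4 pairs. Tubulin genes are similar in sequence, so reads may be split between them and their values are uncertain.

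**Figure D4:**
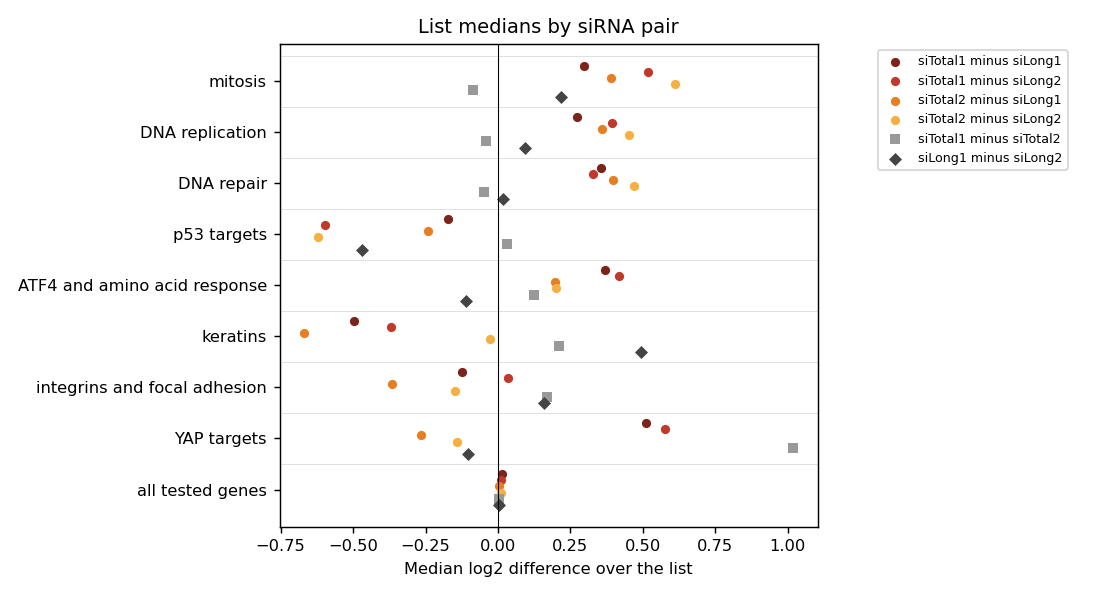
Median log2 difference over the tested members of 8 gene lists and over all tested genes, on the x axis, for each of the 4 siTotal-siLong pairs (circles), for siTotal1 minus siTotal2 (squares) and for siLong1 minus siLong2 (diamonds). For mitosis the 4 circles lie between 0.30 and 0.61. For YAP targets the circles lie on both sides of 0, and the square stands at 1.02.

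The ATF4 and amino acid response list was mostly higher in siTotal, in 17 of 27 members with 5 lower on the mean, and in 8 with 3 lower in all 4 pairs (median 0.20). The shares of all genes were 28.1% higher and 25.3% lower on the mean, and 6.79% and 5.16% in all 4 pairs. ATF4 is the transcription factor that raises amino acid synthesis and uptake when amino acids run short. ASNS, asparagine synthetase, stood at 133 and 129 CPM in siTotal1, 123 and 118 in siTotal2, 53.7 and 51.1 in siLong1 and 75.5 and 74.7 in the libraries labelled siLong2 (log2 difference 1.00, SE 0.03, adjusted p = 2.5e-24). All 8 libraries were under the controls (146 to 156 CPM), siLong further than siTotal. PCK2, mitochondrial phosphoenolpyruvate carboxykinase, was at 17.5 to 28.4 CPM in siTotal and 8.85 to 10.6 in siLong (1.19, SE 0.06). The glutathione-degrading enzyme gene CHAC1 was at 4.88 to 10.6 and 3.75 to 4.56 CPM (0.88), and the arginine transporter gene SLC7A1 at 167 to 232 and 109 to 133 (0.70). The 3 lower members were SESN2, which is also a p53 target (-0.74), the glutamine transporter gene SLC38A2 (-0.38) and ALDH18A1 (-0.23), whose call ended when a change beyond 1.2-fold was tested.

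Aminoacyl-tRNA synthetase genes were called higher in all 4 pairs in 4 of 20, with 1 lower (6.79% and 5.16% of all genes). AARS1, of alanine, was at 237 to 281 CPM in siTotal and 161 to 176 in siLong (0.63, SE 0.03), and QARS1, of glutamine, at 214 to 258 and 163 to 181 (0.46). In nucleotide and folate synthesis 7 of 24 genes were higher in all 4 pairs and 1 was lower, the mitochondrial MTHFD1L (-0.26). TYMS, thymidylate synthase, was at 291 to 337 CPM in siTotal and 176 to 243 in siLong (0.58), and PRPS2, of phosphoribosyl pyrophosphate synthesis, at 85.3 to 90.2 and 43.4 to 63.7 (0.72). The enzymes of the purine ring PPAT (0.02), GART (-0.04) and ATIC (-0.03) did not pass.

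Sterol synthesis genes did not move together. Of 24 members 11 were called higher and 10 lower on the mean, and 4 and 4 in all 4 pairs (median 0.06), beside 28.1%, 25.3%, 6.79% and 5.16% of all genes. HMGCS1, of an early step, was lower in siTotal, at 123 to 136 CPM against 154 to 211 (-0.47, SE 0.03). DHCR7, of the last step, was lower too (-0.31, a call that ended beyond 1.2-fold). LSS, which closes the sterol rings (0.46), ACAT2 (0.58), the sterol carrier gene STARD4 (0.50) and the SREBP retention factor gene INSIG1 (0.55) were higher. HMGCS1 was at 114 and 128 CPM in mock and 250.4 and 263 in siControl, a wider distance than that between the arms. Without the libraries labelled siLong2, 12 were called higher and 6 lower. In fatty acid synthesis 3 of 13 were higher in all 4 pairs and 0 lower: FADS2, the acyl-CoA synthetase gene ACSL3 (0.43) and the stearoyl-CoA desaturase gene SCD (0.36). FASN was at 0.09.

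Endoplasmic reticulum chaperone genes, classic CCAAT-box genes, were called higher on the mean in 13 of 20 and lower in 1, and in all 4 pairs higher in 3 and lower in 0, beside 28.1%, 25.3%, 6.79% and 5.16% of all genes. HSPA5, the chaperone BiP, was at 1001 to 1308 CPM in siTotal, 846 to 917 in siLong and 1084 to 1218 in the controls (0.35, SE 0.03). HSP90B1 was at 1281 to 1428, 1049 to 1110 and 1271 to 1446 CPM (0.33, SE 0.03). PDIA3 (-0.02) and PDIA4 (0.00) did not pass.

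Of 9 keratins tested 3, all of simple epithelium, were lower in siTotal in all 4 pairs and 0 higher, beside 5.16% and 6.79% of all genes. The keratins did not move as a list: the median was -0.06, and without siLong1 it was 0.24, with 5 called higher and 3 lower on the mean. Of all 17507 genes tested without siLong1, 4473 were called higher and 4391 lower. KRT8 stood at 1828 and 1699 CPM in siTotal1, 1552 and 1499 in siTotal2, 2686 and 2697 in siLong1 and 2473 and 2581 in the libraries labelled siLong2 (log2 difference -0.67, SE 0.03, adjusted p = 9.4e-20). The siTotal libraries were near the controls (1475 to 1695 CPM) and the siLong libraries above both. Its pairing partner KRT18 was at 646 to 898 CPM in siTotal and 1034 to 1128 in siLong (-0.52, SE 0.03), and KRT19 at 750.2 to 807 and 1027 to 1284 (-0.58, SE 0.03). KRT20 (0.42) and KRT15 (0.65) were higher on the mean, not in all 4 pairs. The summed level of 10 colon epithelial markers, to which these keratins give most, was 3289 to 3786 CPM in siTotal, 4978 to 5542 in siLong and 3328 to 3662 in mock and siControl. Whether the cells' make-up played a part in the result was not tested.

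Junction genes were called lower on the mean in 19 of 26 and higher in 2, and in all 4 pairs 4 were lower and 0 higher (median -0.16), beside 25.3%, 28.1%, 5.16% and 6.79% of all genes. JUP, plakoglobin of desmosomes and adherens junctions, was at 256 to 318 CPM in siTotal and 393 to 447 in siLong (-0.55, SE 0.03). F11R, junctional adhesion molecule A, was at 68.2 to 73.5 and 86.2 to 110.1 CPM (-0.45), and the claudin gene CLDN4 at 122 to 139.8 and 161 to 177 (-0.37). E-cadherin, CDH1, was lower on the mean (-0.30) but not in all 4 pairs. Integrin and focal adhesion genes were lower in all 4 pairs in 5 of 21 and higher in 0. Besides ITGA2, ITGB4, the beta-4 chain of hemidesmosomes, was at 189.5 to 214 and 249 to 321 CPM (-0.48), ZYX, zyxin, at 179.9 to 207 and 238 to 278 (-0.39) and FBLIM1, a filamin-binding protein, at 2.11 to 4.07 and 4.85 to 9.37 (-1.07). ITGB1 was the other (-0.30).

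LAMA3, a laminin chain of the epithelial basement membrane, went the same way. It stood at 12.9 and 13 CPM in siTotal1, 15.7 and 18.1 in siTotal2, 31.5 and 30.7 in siLong1 and 29.1 and 31.4 in the libraries labelled siLong2 (log2 difference -1.05, SE 0.05, adjusted p = 2.0e-18). For LAMA3, ITGB4 and COL17A1 the arms did not overlap, which in this direction held for 9.58% of all tested genes. They too were picked by calls in all 4 pairs and by their gap, so this is no separate support. In the wider list of mesenchymal and matrix genes 2 of 25 were higher and 3 lower in all 4 pairs, so the list itself was mixed.

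In the lists that follow, counts stand beside 6.79% higher and 5.16% lower of all genes in all 4 pairs. Among ERK output and feedback genes 4 of 18 were higher and 2 lower in all 4 pairs. The list did not move as a whole: 7 were called higher and 8 lower on the mean (28.1% and 25.3% of all genes), with a median of -0.05. Without the libraries labelled siLong2, 6 were called higher and 9 lower. The members named next are from the 4 higher ones. EGR1, an immediate early gene, was at 126 to 199.9 CPM in siTotal and 68.5 to 105 in siLong (0.88), the feedback inhibitor gene SPRY4 at 104 to 123 and 69.6 to 83.1 (0.57), and the ETS factor gene ETV4 at 65.3 to 69.2 and 41.4 to 52 (0.52). Among Wnt and intestinal stem cell genes 3 of 15 were lower and 2 higher. The surface markers CD44 (-0.50) and PROM1 (-0.54) and the transcription factor gene SOX4 (-0.98) were the 3 lower, and SOX4 was at 36.9 and 40.1 CPM in siControl and 112 and 126 in mock. Among glycolysis and hypoxia genes 3 of 28 were higher and 2 lower, shares close to those of all genes, with the neuronal enolase gene ENO2 at 47.6 to 72.8 and 26.2 to 34.4 CPM (0.98).

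Among 27 interferon-stimulated genes 4 were higher and 2 lower in all 4 pairs. Beside IFI35 and IRF7, the oligoadenylate synthetase gene OAS3 was at 102 to 111 CPM in siTotal and 69.5 to 85.8 in siLong (0.48). The list median had the opposite sign (-0.11), with 10 members called lower and 6 higher on the mean. Lysosome and autophagy genes were split, 4 higher and 5 lower of 32. LAMP1, a lysosomal membrane glycoprotein, was lower (-0.77), but at 132 and 136 CPM in siTotal1 and 240.0 and 236 in siTotal2 the siTotal siRNAs differed from each other by more than siTotal2 did from the libraries labelled siLong2 (279 and 279). ATG9A, the membrane scramblase of autophagosomes, was higher, at 88.7 to 113 against 59.1 to 70.2 CPM (0.66).

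The hnRNP gene HNRNPR was at 284 to 347 CPM in siTotal and 211 to 226 in siLong (0.52), and 4 of 26 SR and hnRNP genes were higher in all 4 pairs, with 0 lower. The list median was 0.01. Without the libraries labelled siLong2, 6 were called higher and 9 lower on the mean, 4 and 6 in both remaining pairs, and the median was -0.06. Nuclear respiratory chain genes were lower in all 4 pairs in 3 of 40, a share close to the 5.16% of all genes, and higher in 0, and on the mean 19 were lower and 2 higher. With siLong2 left out, 10 were lower and 10 higher. The mitochondrially encoded genes had 0 of 15 called in all 4 pairs. MT-ND1, of respiratory complex I, was at -0.61 on the mean, and the list median (-0.26) went with the read shares given above.

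Both control groups lay nearer to siTotal than to siLong for 1331 of the 2118 genes called alike (7.51% of the tested genes), nearer to siLong for 191 (1.08%), and on different sides for 596 (3.36%). For genes higher in siTotal the counts were 792 (4.47%), 98 (0.553%) and 313 (1.77%), and for genes lower in siTotal 539 (3.04%), 93 (0.525%) and 283 (1.6%). Both controls lay between the arms in 214 genes higher (1.21%) and 158 genes lower (0.891%) in siTotal. The percents count genes both called alike and so placed, out of all tested genes. How often the controls lie nearer to siTotal over all tested genes was not counted. The split is therefore not shown to be particular to the genes called alike. The nearness was measured from group means of log2 CPM, and it is a description with no test. By list, siTotal and siLong are set against the same control libraries, so their values are not independent of each other: for ATF4 genes the median was -0.16 (mock) and -0.28 (siControl) in siTotal and -0.37 and -0.32 in siLong.

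Some of the largest mean differences belonged to 1 siRNA. SLC2A3, a neuronal-type glucose transporter (ENSG00000059804, chromosome 12, 7919230 to 7936275), stood at 121 and 104 CPM in siTotal1, 13.9 and 14.7 in siTotal2, 6.55 and 6.78 in siLong1 and 15.2 and 16.3 in the libraries labelled siLong2. The arm means differed by 1.97 (SE 0.13, adjusted p = 7.6e-06), but siTotal2 and the libraries labelled siLong2 differed by -0.14 (adjusted p = 0.58). siTotal1 exceeded siTotal2 by 2.98. CEACAM19, of the carcinoembryonic antigen family, stood at 2.78 and 4.23 CPM in siTotal1, 2.10 and 2.91 in siTotal2, 12.9 and 14 in siLong1 and 3.15 and 2.58 in the libraries labelled siLong2. Its difference of -1.06 (adjusted p = 4.0e-09) came with siLong1, and without the siLong1 libraries it was 0.05 (adjusted p = 0.82). CCDC92 stood at 4.55 and 5.88 CPM in siTotal1, 7.62 and 7.07 in siTotal2, 1.44 and 1.30 in siLong1 and 5.29 and 6.23 in the libraries labelled siLong2 (1.14 on the mean), and without siLong1 the difference was 0.10 (adjusted p = 0.55). The ferritin pseudogene FTH1P11 (-1.22) was high in siLong1 as well, and its count is uncertain because near-identical copies exist. VGF (1.03), a secreted neuropeptide precursor, and RGS6 (-0.98), a regulator of G protein signalling, changed with the libraries labelled siLong2: without them they were at 0.12 (adjusted p = 0.32) and -0.11 (adjusted p = 0.61).

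Promoters were read from RefSeq on GRCh38.p14, 250 bases before to 50 after the start, and matched by symbol for 10695 of 13268 tested protein-coding genes (80.6%). There were 35116 promoters of 27305 genes, and for each gene only the start furthest 5′ was searched. The words searched were CCAAT, the core of the NF-Y box, and TTTGAA, the core of the cell cycle homology region bound by the DREAM complex, each on both strands. Neither word contains the other, but matches of both can share a base at their ends. CCAAT was in the searched promoter of 35.7% of these 27305 genes, 36.6% of tested genes and 42.8% of the 959 genes higher in siTotal in all 4 pairs. For genes lower in siTotal the promoter table covered 79.1%, under the 80% needed, so the check is void for them. Of mitosis genes 26 of 34 (76.5%) held CCAAT and 23 (67.6%) TTTGAA, against 9.9% of tested genes for TTTGAA. DNA replication genes held CCAAT in 54.3%, DNA repair genes in 12 of 24, p53 targets, which were lower in siTotal, also in 12 of 24, and endoplasmic reticulum chaperones in 89.5%.

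**Figure D5:**
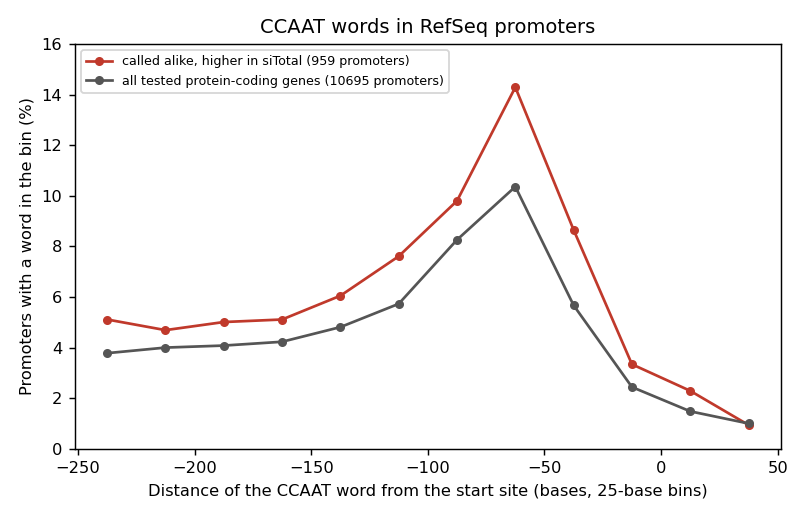
Percent of promoters with a CCAAT word in each 25-base bin, against its distance from the start site in bases, for 959 genes higher in siTotal in all 4 pairs (red) and 10695 tested protein-coding genes (grey). Both lines peak in the bin from 75 to 50 bases before the start, at 14.29% and 10.36%.

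Medians over all tested genes with a promoter were close with and without a CCAAT word. The 3918 genes with the word had a median log2 difference of 0.02 and the 6777 without it 0.01. Of genes with the word 10.46% were higher in all 4 pairs, and of genes without it 8.1%. The word was most frequent 75 to 50 bases before the start in both the higher genes (14.29%) and all tested genes (10.36%).

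Windows around 1 CCAAT word of 5 members are shown to set genes that were higher in siTotal beside 1 that was lower and also carries the word. They are RefSeq sequence on GRCh38.p14 in the gene's own direction, with the word in capitals (ATTGG is CCAAT read on the other strand).
CDK1, chr10:60778169-60778197, plus strand: atttgaactgtgCCAATgctgggagaaaa
CCNB2, chr15:59105047-59105075, plus strand: atcttgtgttggCCAATgagaacagcgac
BLM, chr15:90717288-90717316, plus strand: gagtgcgacagtATTGGtcggcttcccca
HSP90B1, chr12:103930323-103930351, plus strand: tggtgcggcgcgATTGGtgggttcatgtt
BTG2, chr1:203305431-203305459, plus strand: ctctggccgcgaCCAATgagcgccgccgc
The word lies 150, 87, 46, 75 and 76 bases before the start. Of these promoters CDK1 and BTG2 hold 1 such word, BLM 3, CCNB2 4 and HSP90B1 5. CDK1, CCNB2, BLM and HSP90B1 were higher in siTotal and BTG2 was lower. The promoters of DHRS2, FADS2, H1-10, BRCA1 and ITGA2 held 0 CCAAT words at the start searched, and any other start of these genes was not searched. A word is a match of letters and shows no binding.

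The 3′ untranslated regions of GENCODE 29 were searched for the 7-base words that pair with each guide's seed, in 11220 genes with a mean log2 CPM of at least 1. The siTotal first word, AAGGGAA, was in 20.5% of all, in 17.1% of genes higher in siTotal in all 4 pairs and in 25.1% of genes lower. The second, GACGATT, was in 1.6%, 0.6% and 1.7%. The siLong first word, TAGGGTA, was in 6.3% of all, 9.0% of genes higher in siTotal and 4.7% of genes lower, and the second, TAGCATC, in 7.6%, 10.9% and 6.6%. Genes with a siLong word had median differences between the arms of 0.08 (first) and 0.09 (second), against 0.01 in each case for genes without it. For the siTotal words the medians were -0.01 and -0.07 with the word and 0.02 and 0.02 without. The median length of the untranslated region was 1297 bases in genes higher in siTotal, 1430 in genes lower and 1409 in all. The upper quartile was 2854, 2677 and 2783 bases in the same order, so the longer regions did not follow the medians. The median share of G and C in these regions was 41.5% in genes higher, 44.1% in genes lower and 42.9% in all. These shares are descriptions, and the part of seed matches in any gene's difference was not tested.

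With each siRNA as 1 replicate 0 genes passed the adjusted test in edgeR. This layout sums the same 8 libraries, so the direction of a list in it is no separate support. List members at an unadjusted p under 0.05 were counted. Mitosis had 23 of 40 members higher and 0 lower, DNA replication 13 of 40 and 0, DNA repair 10 of 28 and 0, and p53 targets 1 of 28 higher and 13 lower. Over all genes 1346 of 18608 were at that p. The 77 genes that DESeq2 called this way, a test added after the data were seen, included 29 named here, among them DHRS2, FADS2, H1-10, COL17A1, ITGA2, BIK, BTG2, LAMA3, ASNS, PCK2 and PRIM1.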

How the data were processed

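RNA of 12 HCT116 cultures was sequenced. The authors deposited unnormalised whole-number counts, with Ensembl identifiers as rows and libraries as columns; 0 columns belonged to other samples. Per the submitters' processing notes, the authors used STAR 2.4.0f1, featureCounts and the hg19 build; the sources used here do not name the annotation release or the strand setting. Groups and replicate numbers come from the sample titles.

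Low genes were removed by filterByExpr (at least 10 reads, total at least 15) and libraries were scaled by TMM. The quasi-likelihood fit of edgeR 4.0.16 under R 4.3.3 had 1 term for each of 6 groups, which left 6 residual degrees of freedom. The biological coefficient of variation was 3.57%. The contrast was the mean of siTotal1 and siTotal2 minus the mean of siLong1 and siLong2, and each of the 4 pairs was tested in the same fit. A gene was called at a Benjamini-Hochberg adjusted p under 0.05 over all 17730 genes. All adjusted p-values are from this test unless named otherwise. The code was tested on simulated data. Alternatives used DESeq2 1.42.0, RLE and upper-quartile scaling, other filters, fewer libraries, a replicate block, a 1.2-fold minimum and siRNAs as replicates. Group log2 CPM used a prior count of 2.

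Named genes were, among genes called alike in 4 pairs with a mean log2 CPM of at least 1, the 12 widest gaps each way and up to 4 members of each list with at least 3 such genes, the NF-Y subunits, and the 3 largest mean differences each way whose pairs had both signs. Other list members are given by their mean difference. A few genes picked this way are left out of the text. The members, the lists and the rule were chosen with earlier results of these data known. Symbols were found for 40331 of 63677 identifiers, and 1620 tested genes had none. Gene positions are GENCODE 29 on GRCh38, not hg19. Chi-square over degrees of freedom was 1.87 to 7.9 between same-group libraries, more than sampling noise gives. This cannot tell separate cultures from separate preparations of 1 RNA. Each library was taken as 1 replicate because the design text names biological duplicates.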

Additional observations from a re-analysis of the deposited data

Results flagged for a closer look

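The siRNA pairs went in opposite directions at 2 of the named genes, each past the test in both directions. VGF stood at 47.8 and 53.9 CPM in siTotal1, 24.1 and 18.1 in siTotal2, 30.2 and 29.9 in siLong1 and 8.74 and 8.24 in the libraries labelled siLong2. siLong1 exceeded the libraries labelled siLong2 by 1.82 on the log2 scale (edgeR, adjusted p = 1.3e-08), so that siTotal1 minus siLong2 was 2.58 and siTotal2 minus siLong1 was -0.51. RGS6 stood at 1.22 and 1.43, 2.74 and 3.17, 2.26 and 2.01 and 7.27 and 7.08 CPM in the same order. Its siLong1 minus siLong2 difference was -1.75 (edgeR, adjusted p = 2.3e-12), and the siTotal minus siLong differences ran from -2.43 to 0.47. Groups of 2 libraries were too small to look for outlying libraries.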

How the results depend on the processing

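Over RLE and upper-quartile scaling, both filters, DESeq2 and the fit of 8 libraries, the number of genes differing between the arms stayed within 1.5 times the 9472 reported, as did the 2118 called alike. RLE moved the share higher from 52.6% to 50.1% and upper-quartile scaling to 49.1%. Leaving out 1 library gave 8711 to 9493 and 1733 to 2110, and none of the 126 named genes lost its call. Replicate numbers did not pair libraries (correlations of -0.0851 to 0.0991 over 15 pairs of groups); with the replicate block the counts were 9498 and 2130. Testing beyond 1.2-fold gave 3383 and 548, and 21 named genes lost their call. With each siRNA as 1 replicate edgeR called 0 genes and DESeq2 77 (the latter chosen after seeing the data). With 1 siRNA left out only 2 pairs remain to be called: 4795 genes without siTotal1, 4736 without siTotal2, 5204 without siLong1 and 5837 without the libraries labelled siLong2. CEACAM19 turned to 0.052 without siLong1; the cause was not tested. Each arm has only 2 siRNAs, and genes under the filter on low counts could not be compared at this depth.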

Other observations

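Some gene groups followed 1 siRNA and not the arm. YAP targets were called higher in siTotal on the mean in 10 of 15 members and lower in 3, but 0 were called alike in all 4 pairs. Of all tested genes 28.1% were called higher and 25.3% lower on the mean. Their median was 0.51 and 0.57 in the pairs with siTotal1 and -0.27 and -0.14 in those with siTotal2, and siTotal1 exceeded siTotal2 by a median of 1.02. Without siTotal1, 1 was called higher and 9 lower, and without siTotal2, 12 and 2. Of all 17638 genes tested without siTotal1, 4707 were called higher and 4643 lower. Without siTotal2 these were 4883 and 4229 of 17546. Cytosolic ribosomal protein genes were called higher on the mean in 34 of 54, yet in all 4 pairs in 1, and without siTotal1 in 12 with 11 lower. Replication-dependent histone genes had medians of -0.30 and -1.17 with siTotal1 and 0.80 and 1.01 with siTotal2. Only 8 of the 16 listed histone genes were tested, in polyadenylated RNA, and copies of these genes are near-identical, so their values are uncertain. Genes of TGF-beta signalling had 0 of 15 higher and 2 lower in all 4 pairs, and 8 higher on the mean.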
